A study of Mus musculus with 26 samples.

Results

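The Id proteins and the E proteins are the 2 sides of 1 transcription factor system, and their 7 genes (Id1, Id2, Id3, Id4, Tcf3, Tcf4 and Tcf12) were followed across 8 sorted blood stem and progenitor populations of the mouse. The genes were chosen by name, 1 probe set per symbol, and are 7 of the 19938 genes measured. The series profiled bone marrow cells of mice that carry a green fluorescent protein reporter of Gata1, a factor that directs the development of red cells, platelets, mast cells and eosinophils. All 8 groups share the genotype Gata1-EGFP Tg/+ and an age of 8 to 15 weeks, so no group is free of the transgene. Each of the 26 arrays gave 1 log2 signal per probe set on the Mouse Gene 1.1 ST platform. A group is a surface gate and not 1 cell type, and in such bulk samples fewer cells of a type and less RNA per cell cannot be told apart.

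Granulocyte-macrophage progenitors (GMP) were lineage-negative, cKit-positive, Sca1-negative, CD41-negative cells that carry the Fc gamma receptors, sorted into reporter-positive (GMP GFP+, 3 arrays) and reporter-negative cells (GMP GFP-, 4 arrays). Pre-megakaryocyte-erythroid progenitors (PreMegE, 3 arrays) lacked these receptors and CD105 and carried CD150, with no reporter gate in their label. Pre-granulocyte-macrophage progenitors (PreGM) lacked the Fc gamma receptors, CD150 and CD105, and were likewise split into PreGM GFP+ and PreGM GFP- with 3 arrays each. Common lymphoid progenitors (CLP, 3 arrays) had low Sca1 and cKit, no B220, and both Flt3 and the interleukin-7 receptor, again with no reporter gate. Lymphoid-primed multipotent progenitors (LMPP, 4 arrays) were cKit- and Sca1-positive cells with high Flt3, no CD150 and no reporter signal. Haematopoietic stem cells (HSC GFP-, 3 arrays) had no reporter signal and were cKit- and Sca1-positive, CD150-positive and Flt3-negative.

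E proteins are basic helix-loop-helix factors that bind a short DNA motif called the E-box as dimers. Tcf3 encodes E2A, which is required for B cell development, Tcf4 encodes E2-2, which is required for plasmacytoid dendritic cells, and Tcf12 encodes HEB, which acts in T cell development. Id proteins have the helix-loop-helix part but no basic region, so that a dimer of an Id protein with an E protein cannot bind DNA. Id2 is required for natural killer cells, innate lymphoid cells and several dendritic cells, and Id1 and Id3 are known targets of bone morphogenetic protein signals.

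The stretch of 250 bases before the start of Id2 is shown because Id2 was the Id gene whose signal differed between the populations. The sequence is that of RefSeq (GRCm38.p6), at chr12:25096093-25096342 on the minus strand, with its single E-box of the form CANNTG in capitals.
Id2 promoter: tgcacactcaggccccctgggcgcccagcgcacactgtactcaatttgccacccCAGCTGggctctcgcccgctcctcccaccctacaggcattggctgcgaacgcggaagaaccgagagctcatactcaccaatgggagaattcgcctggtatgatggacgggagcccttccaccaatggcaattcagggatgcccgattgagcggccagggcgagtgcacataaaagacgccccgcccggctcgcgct
The E-box, CAGCTG, starts 196 bases before the start of the gene. A motif CANNTG, which reads as CANNTG on the other strand too, occurred in 66.2% of the 32851 promoters of the same length, and CAGCTG, which is a case of it, in 13% of them. GATAA, the core of the sites that Gata factors bind, occurred on either strand in 22.6% of the promoters and 0 times in that of Id2. These matches describe letters in a window and are not binding sites shown in these cells.

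Arrays of 1 group correlated over all genes with r between 0.950 and 0.989, against 0.923 to 0.983 between groups, and their medians lay between 6.42 and 6.70. Gata1 followed the reporter labels: its GMP GFP+ arrays lay between 7.92 and 8.21, against 6.36 to 6.45 in the GMP GFP- arrays, and the PreGM GFP+ arrays between 8.01 and 8.74, against 6.36 to 7.14 in the PreGM GFP- arrays. Transcripts of the surface gates did not all follow theirs: Itga2b, which encodes CD41, averaged 8.57 in the CD41-negative GMP GFP+ cells and 7.13 in GMP GFP- (called, adjusted p = 1.48e-06), and Flt3 averaged 8.18 in the Flt3-negative HSC GFP- cells. Nothing in the labels ties replicates to separate mice, so the p-values cover the spread between arrays, which may be technical. The mean signal of 3 Y-linked genes varied within groups, from 5.77 to 7.73 over the LMPP arrays and from 6.06 to 7.14 over those of GMP GFP+. The number of arrays limits the precision. A moderated F test in limma asks of each gene whether the 8 group means differ, and genes were called where the p adjusted over all 19938 genes was under 0.05.

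Of the 7 genes, 2 were called by this F test, Id2 (probe set 10399691, adjusted p = 2.15e-07) and Tcf4 (probe set 10456522, adjusted p = 2.06e-05), against 15.2% of all genes. The group means of Id2 spanned 3.80 log2 units, more than those of 99.6% of the genes, and those of Tcf4 spanned 1.88, more than those of 97.2%. The spans of the other 5 were 0.30 for Id1, 0.31 for Id3, 0.30 for Id4, 0.42 for Tcf3 and 0.71 for Tcf12, with adjusted p between 0.283 and 0.718. The median of all values in the table, 6.61, serves as a low mark: a signal under it may be no more than background, and a difference that involves a group mean under it is one of signal and is not converted to a fold. All 26 arrays of Id3, 15 of Id2, 8 of Id1 and 1 of Id4 lay under it, against 0 of Tcf3, Tcf4 and Tcf12.

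**Figure D1:**
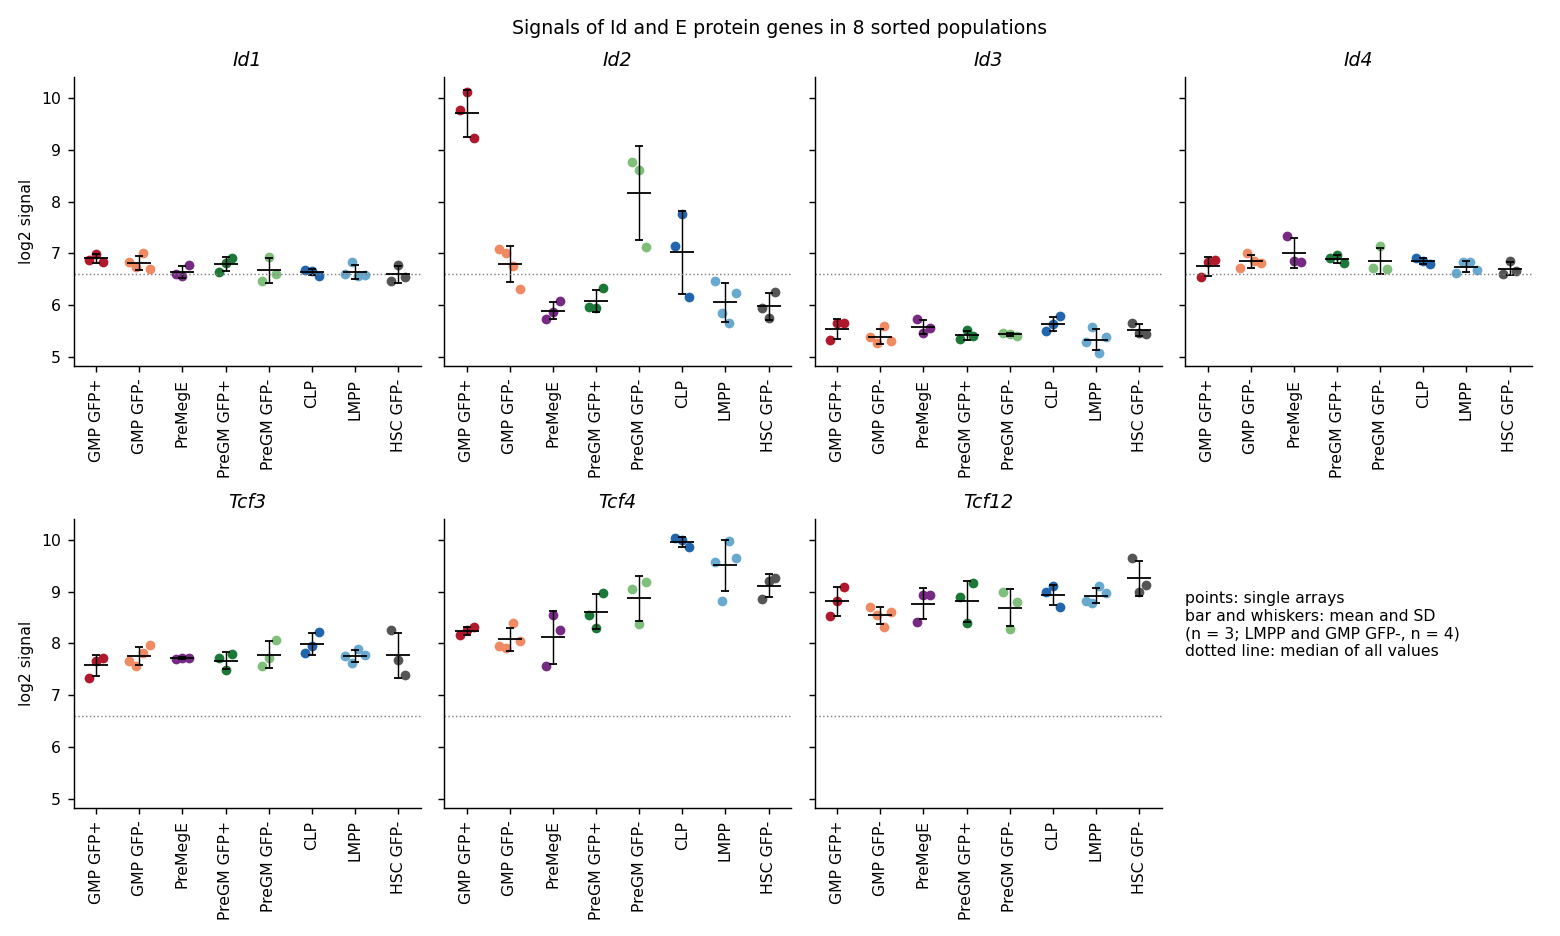
Log2 signal (vertical axis) of the 7 genes in each array (points), by sorted population, with the group mean and SD (bar and whiskers) and the median of all values (dotted line). Id2 stands at 9.70 in GMP GFP+ and 8.16 in PreGM GFP-, against 5.90 to 7.02 in the other populations, Tcf4 is highest at 9.96 in CLP, and the other 5 genes keep to a narrow band.

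Id2 was high in reporter-positive GMP and in reporter-negative PreGM. Its log2 signals were 9.76, 10.10 and 9.22 in GMP GFP+, against 7.09, 7.0, 6.76 and 6.32 in GMP GFP-. In PreGM GFP+ they were 5.97, 5.94 and 6.33, against 8.75, 8.60 and 7.12 in PreGM GFP-. Within each gate no array of one reporter class reached the range of the other, but the direction turned between the gates: the high class was the reporter-positive one in GMP and the reporter-negative one in PreGM. Array 3 of PreGM GFP- was the lowest of its group and gave it the widest spread, an SD of 0.90.

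In the other populations Id2 was low or uneven. CLP gave 7.13, 7.76 and 6.16, LMPP gave 6.48, 5.86, 5.65 and 6.24, PreMegE gave 5.75, 5.87 and 6.08, and HSC GFP- gave 5.94, 5.75 and 6.25. CLP array 3 lay within the range of LMPP and the other CLP arrays above it. By group mean the order was GMP GFP+ (9.70), PreGM GFP- (8.16), CLP (7.02), GMP GFP- (6.80), PreGM GFP+ (6.08), LMPP (6.06), HSC GFP- (5.98) and PreMegE (5.90). Of the neighbours in this order only GMP GFP+ and PreGM GFP- had arrays that did not overlap.

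The comparison within GMP asks how cells of 1 surface gate differ by reporter activity. Id2 signal in GMP GFP+ exceeded that in GMP GFP- by 2.90 log2 units (SE 0.35, 95% interval 2.18 to 3.62, adjusted p = 6.73e-06), which is 7.47-fold. It was the only one of the 7 genes called there, where 3.22% of all genes were higher and 4.05% lower. The other 3 Id genes differed by 0.08 (Id1), 0.16 (Id3) and -0.10 (Id4), and the E protein genes by -0.17 (Tcf3), 0.17 (Tcf4) and 0.27 (Tcf12), with adjusted p between 0.43 and 0.718.

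Within PreGM the same question had the opposite answer for Id2. Its signal in PreGM GFP+ was below that of PreGM GFP- by 2.08 log2 units (difference -2.08, SE 0.37, 95% interval -2.85 to -1.31, adjusted p = 0.00168), with the PreGM GFP+ mean under the low mark. Again it was the only member called, against 0.908% of all genes higher and 1.14% lower. With arrays weighted by their residual spread the difference was -1.27 (adjusted p = 0.0123). Over all alternative analyses the limma adjusted p of this Id2 difference reached 0.0473, close to the threshold. The other members differed by 0.12 (Id1), -0.02 (Id3), 0.04 (Id4), -0.12 (Tcf3), -0.26 (Tcf4) and 0.12 (Tcf12), with adjusted p of 0.842 or more. Over both reporter comparisons, the 95% intervals of these 6 genes stayed between -0.81 and 0.69.

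**Figure D2:**
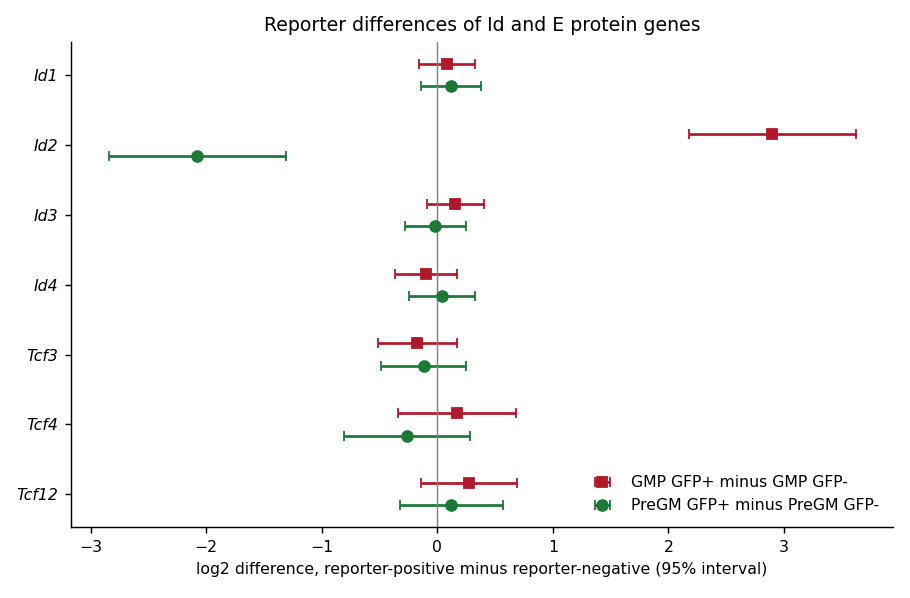
Log2 difference of reporter-positive minus reporter-negative cells (horizontal axis) with its 95% interval for the 7 genes, in GMP (squares) and PreGM (circles). Id2 lies at 2.90 in GMP and at -2.08 in PreGM, and the intervals of the other 6 genes include 0 in both.

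The difference between these reporter effects was itself tested. For Id2 it was 4.98 log2 units (SE 0.51, 95% interval 3.93 to 6.03, adjusted p = 3.97e-06), the effect in GMP minus that in PreGM, and no other member was called, with adjusted p between 0.864 and 0.983. Over all genes 0.517% had a called positive and 0.186% a called negative difference, and by size that of Id2 was number 2 of the positive ones among 19938. Only 2 genes were called lower in PreGM GFP+ and higher in GMP GFP+, Id2 and the model gene Gm4759, and 1 gene was called the other way round, the glucosyltransferase gene B3glct. The difference was -1.22 in PreGM and 1.37 in GMP for Gm4759, which was singled out after its values were seen.

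Along the steps between gates, Id2 was again the member that differed most often. In GMP GFP+ it was higher than in PreGM GFP+ by 3.62 (SE 0.37, 95% interval 2.85 to 4.39, adjusted p = 1.70e-06), where 0.792% of all genes were higher and 0.226% lower. In GMP GFP- it differed from PreGM GFP- by -1.36 (95% interval -2.08 to -0.64, adjusted p = 0.0523), which missed the threshold. The arrays were apart only narrowly, with 7.09 as the highest of GMP GFP- and 7.12 as the lowest of PreGM GFP-. There limma called 0 of the 7 genes (2 at an unadjusted p under 0.05, Id2 and Tcf4), against 0.918% of all genes higher and 0.471% lower. Without array 3 of PreGM GFP- that difference was -1.88 (adjusted p = 0.00222), and with array weights -0.49 (adjusted p = 0.314). In PreGM GFP- Id2 was higher than in LMPP by 2.10 (SE 0.35, 95% interval 1.38 to 2.82, adjusted p = 0.00215), where 0.396% of all genes were higher and 0.476% lower. This last value was 1.23 (adjusted p = 0.0112) with array weights and lost its call (adjusted p = 0.0636) when the 2 groups were fitted on their own. These comparisons share arrays with each other and with the reporter comparisons.

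From HSC GFP- to the early branches Id2 did not pass the test. It differed by 0.08 between LMPP and HSC GFP- (95% interval -0.64 to 0.80, adjusted p = 0.964), by -0.08 between PreMegE and HSC GFP- (adjusted p = 0.965) and by -0.18 between PreMegE and PreGM GFP+ (adjusted p = 1). In CLP it differed from LMPP by 0.96 (95% interval 0.24 to 1.68, adjusted p = 0.253). Without CLP array 3 that difference was 1.39 (adjusted p = 0.0406), and without array 2 it was 0.59 (adjusted p = 0.777).

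Markers of other cell types also differed between the reporter classes, some in the direction of Id2 and some opposite to it. Ranges given for a list are those of the array means over all its measured genes, called or not. Of 10 mast cell and basophil genes 8 were higher in GMP GFP+, of which Cma1 and Tpsb2 had means under the low mark in both GMP groups. The mean log2 signal of all 10 was 9.76 to 10.09 in GMP GFP+ arrays, against 6.81 to 7.10 in GMP GFP-. All 6 eosinophil genes were higher there too, at 9.11 to 9.77 in GMP GFP+, against 5.89 to 6.15 in GMP GFP-. Among these Il5ra was under the low mark in both GMP groups. In PreGM 4 of the 10 mast cell and basophil genes were higher in PreGM GFP+, so there they ran opposite to Id2. The mean of all 10 was 7.56 to 7.90 in PreGM GFP+ arrays, against 6.59 to 6.82 in PreGM GFP-. Erythroid genes were higher in both reporter-positive groups, 5 of 5 in GMP GFP+ (8.18 to 8.51, against 6.45 to 6.73 in GMP GFP-) and 4 of 5 in PreGM GFP+ (9.02 to 9.29, against 6.46 to 7.03 in PreGM GFP-).

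All 6 monocyte genes measured were lower in PreGM GFP+, at a mean of 6.05 to 6.19 with 5 of the 6 under the low mark, against 9.16 to 9.52 in PreGM GFP-. They were also lower in GMP GFP+, at 6.40 to 6.71, against 8.43 to 9.56 in GMP GFP-, so in GMP they ran opposite to Id2. Neutrophil genes were lower in both, 5 of 8 in GMP GFP+ (8.94 to 9.82, against 10.88 to 11.83 in GMP GFP-) and 4 of 8 in PreGM GFP+ (7.38 to 8.69, against 9.11 to 9.65 in PreGM GFP-). Of 8 conventional dendritic cell genes 3 (Flt3, H2-Aa and Cd74) were lower in PreGM GFP+, the direction of Id2. These averaged 6.34, 6.02 and 5.99 in PreGM GFP+, all under the low mark, against 10.03, 9.04 and 7.46 in PreGM GFP-. The mean of all 8 was 5.90 to 6.01 in PreGM GFP+ arrays, against 6.98 to 7.31 in PreGM GFP-. The other 5 (Itgax, Zbtb46, Xcr1, Clec9a and Batf3) were not called and had means under the low mark in both PreGM groups. Flt3 was highest in LMPP (11.44), and H2-Aa and Cd74 also averaged 8.75 and 7.14 in HSC GFP-. None of the 8 genes was called in GMP, at 5.95 to 6.18 in GMP GFP+, against 6.0 to 6.23 in GMP GFP-. In CLP the monocyte mean was 9.92, 9.89 and 8.30, against 7.25 to 7.63 in LMPP, and the array with 8.30 is the one lowest in Id2. That same CLP array 3 had the lowest mean of the plasmacytoid dendritic cell genes (8.39, against 9.23 and 9.07 in the other CLP arrays) and the highest of the B cell genes (8.55, against 7.77 and 7.27). Of 6 markers of innate lymphoid precursors, in which Id2 is known to act, 2 (Zbtb16 and Itgb7) were higher in GMP GFP+. The mean of all 6 was 6.74 to 7.05 in GMP GFP+ arrays, against 6.23 to 6.39 in GMP GFP-. In PreGM GFP+ 1 of the 6 (Gata3) was lower, averaging 6.02, under the low mark, against 6.74 in PreGM GFP-. The mean of all 6 was 6.55 to 6.77 in PreGM GFP+ arrays, against 6.67 to 7.22 in PreGM GFP-. The calls of Zbtb16, Itgb7 and Gata3 have the direction of Id2, but no marker of this list was called in both gates. Zbtb16 was not called in PreGM and averaged 7.91 in PreGM GFP+ and 7.44 in PreGM GFP-, opposite to Id2. Of the 6 markers, 0 were called in the difference of the reporter effects. In CLP 1 of the 6 (Il18r1) was higher than in LMPP. Over all 6 markers the array means were 7.09 to 7.22 in CLP, against 6.71 to 7.09 in LMPP. The part of any of these cells in the Id2 values was not tested.

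**Figure D3:**
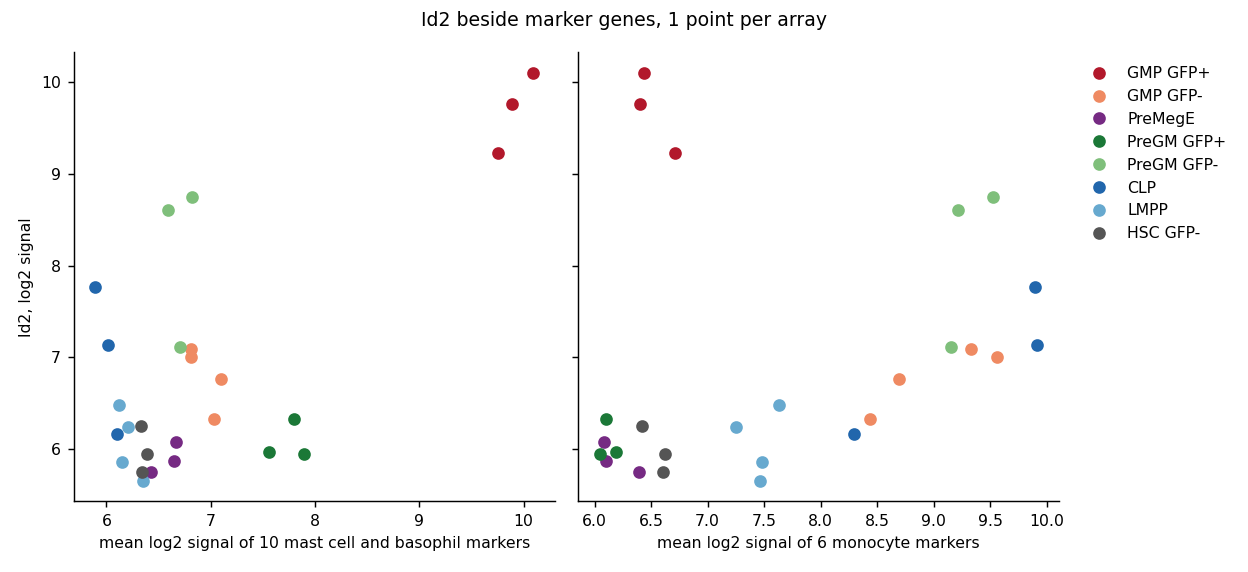
Log2 signal of Id2 (vertical axis) in each array against the mean log2 signal of 10 mast cell and basophil markers (left) or 6 monocyte markers (right), coloured by population. GMP GFP+ arrays pair Id2 of 9.22 to 10.10 with mast cell and basophil means of 9.76 to 10.09. PreGM GFP- arrays pair Id2 of 7.12 to 8.75 with monocyte means of 9.16 to 9.52. GMP GFP- arrays pair Id2 of 6.32 to 7.09 with monocyte means of 8.43 to 9.56. CLP arrays pair Id2 of 6.16 to 7.76 with monocyte means of 8.30 to 9.92.

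The other Id genes varied little. Id1 ran over all arrays between 6.47 and 7.0, near the low mark, with its highest mean in GMP GFP+ (6.90 ± 0.08, SD, n = 3) and its lowest in HSC GFP- (6.60 ± 0.16, SD, n = 3). Id3 ran between 5.09 and 5.79 and was under the low mark in every array, and Id4, best known from neural cells, ran between 6.55 and 7.34 (highest mean 7.01 in PreMegE, lowest 6.71 in HSC GFP-). In the orders of the 8 group means of these 3 genes every pair of neighbours had overlapping arrays. Over the 9 comparisons of 2 groups, the 95% intervals of Id1 lay between -0.40 and 0.39, those of Id3 between -0.44 and 0.56 and those of Id4 between -0.36 and 0.59. For Id3 and Id1, signals this close to background may understate a difference in RNA.

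Tcf4 was the E protein gene that differed, high in CLP and low in GMP and PreMegE. Its log2 signals were 10.02, 9.99 and 9.85 in CLP, 9.57, 8.81, 9.98 and 9.65 in LMPP, and 8.86, 9.21 and 9.27 in HSC GFP-. In PreGM GFP+ they were 8.55, 8.30 and 8.98, against 9.05, 8.37 and 9.18 in PreGM GFP-. In GMP GFP+ they were 8.16, 8.25 and 8.32, against 7.95, 7.91, 8.40 and 8.04 in GMP GFP-, and PreMegE gave 7.56, 8.55 and 8.26. Every CLP array was above every array of HSC GFP-, PreGM, GMP and PreMegE, while each group overlapped with its neighbour in the order CLP (9.96), LMPP (9.50), HSC GFP- (9.11), PreGM GFP- (8.87), PreGM GFP+ (8.61), GMP GFP+ (8.25), PreMegE (8.12) and GMP GFP- (8.08).

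Of the 9 comparisons of 2 groups, 1 called Tcf4. It was lower in PreMegE than in HSC GFP- by 0.99 log2 units (difference -0.99, SE 0.26, adjusted p = 0.0378), which is 1.99-fold, with no overlap of arrays. It was the only member called there, against 0.988% of all genes higher and 2.19% lower. This call was lost when the 2 groups were fitted on their own (adjusted p = 0.192) and when PreMegE array 1 or 3 or HSC GFP- array 2 or 3 was left out (adjusted p of 0.0693 to 0.26). Tcf4 differed by -0.49 between PreMegE and PreGM GFP+ (adjusted p = 1), a comparison in which limma called 0 members (also 0 at an unadjusted p under 0.05) and 0.015% of all genes were higher and 0.0502% lower.

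Between the lymphoid gates no member passed limma's test, with 2 members at an unadjusted p under 0.05 between CLP and LMPP (Id2 and Id3) and 0 between LMPP and HSC GFP-. Tcf4 differed by 0.45 between CLP and LMPP (95% interval -0.06 to 0.96, adjusted p = 0.585), where 0.828% of all genes were higher and 0.747% lower, and by 0.39 between LMPP and HSC GFP- (95% interval -0.12 to 0.90, adjusted p = 0.593), where 1.03% were higher and 1.28% lower. Towards the myeloid gates it differed by -0.63 between PreGM GFP- and LMPP (adjusted p = 0.358), by -0.79 between GMP GFP- and PreGM GFP- (adjusted p = 0.161) and by -0.36 between GMP GFP+ and PreGM GFP+ (adjusted p = 0.867). The GMP GFP- value was called with array weights (-1.03, adjusted p = 0.0013) and with a covariate made of Y-linked genes (-0.68, adjusted p = 0.043). Beside these values, 4 of 6 plasmacytoid dendritic cell genes were higher in CLP. The mean of all 6 was 8.39 to 9.23 in CLP arrays, against 6.96 to 7.18 in LMPP. The part of plasmacytoid dendritic cells in the Tcf4 level of CLP was not tested.

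Tcf3 and Tcf12 were measured well above the low mark in every population and were not called in any comparison. Tcf3 ran between 7.34 and 8.25, with its highest mean in CLP (8.00 ± 0.21, SD, n = 3) and its lowest in GMP GFP+ (7.58 ± 0.21, SD, n = 3). Tcf12 ran between 8.29 and 9.64, with its highest mean in HSC GFP- (9.25 ± 0.34, SD, n = 3) and its lowest in GMP GFP- (8.54 ± 0.17, SD, n = 4). Each group of both genes overlapped with its neighbour. The largest difference between 2 compared groups was that of Tcf12 in PreMegE, which differed from HSC GFP- by -0.49 (95% interval -0.93 to -0.04, adjusted p = 0.323) without overlap of arrays. The 95% intervals of Tcf3 lay between -0.49 and 0.57 over the 9 comparisons, and those of Tcf12 between -0.93 and 0.69.

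Over the 8 group means, the pattern of Tcf4 was closest among the members to that of Tcf3 (Pearson r = 0.766), and Id2 was closest to Id1 (r = 0.611), while Id2 and Tcf4 gave r = -0.202. The F test called neither Tcf3 (adjusted p = 0.718) nor Id1 (adjusted p = 0.423), so their group means may differ by array spread alone. Among the 1880 genes that the F test called and whose group means span 1 log2 unit or more, those most like Id2 were Runx1, a blood transcription factor (r = 0.968), the chemokine receptor gene Cx3cr1 (r = 0.904) and the nucleotide sugar transporter gene Slc35d1 (r = 0.898). Those most like Tcf4 were Plekha2 (r = 0.971), the sorting nexin gene Snx30 (r = 0.971) and the MADS-box factor gene Mef2a (r = 0.960). These values describe 8 points that share their arrays and carry no test. Runx1 was highest in GMP GFP+ (10.33) and lowest in PreMegE (9.01), like Id2, for which likeness it was picked. Cx3cr1 and Slc35d1 were also highest in GMP GFP+, but lowest in LMPP and in PreGM GFP+.

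The genes that E proteins work with were set against the background of each comparison, which was highest between GMP GFP+ and GMP GFP- (3.22% of all genes higher, 4.05% lower). Of 9 genes of the LMO and LDB complex, which bridges E protein dimers and Gata factors on DNA, 3 were higher in GMP GFP+ there and 2 lower, with a median difference of 0.18, against 0.08 over all genes. The 3 GMP GFP+ arrays of the LIM-only gene Lmo4 lay between 10.83 and 11.19, against 7.91 to 9.11 in the 4 GMP GFP- arrays, a difference of 2.64 (SE 0.26, adjusted p = 4.47e-07) or 6.22-fold. Lmo2, the LIM-only partner of Tal1 in stem and erythroid cells, was lower by 0.91 (difference -0.91, SE 0.12, adjusted p = 2.55e-05), at 8.97 ± 0.08 (SD, n = 3) in GMP GFP+ arrays and 9.88 ± 0.14 (SD, n = 4) in GMP GFP- arrays. Ssbp2 (0.88), the bridging gene Ldb1 (0.57) and Lmo1 (-0.61, under the low mark) were called with adjusted p between 0.00883 and 0.048, and each lost its call in at least 1 alternative analysis.

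In the other comparisons this complex gave 0 to 3 calls. Of its 9 genes, 1 was higher and 2 lower in GMP GFP+ than in PreGM GFP+, against 0.792% and 0.226% of all genes. The count was 1 higher in the difference of reporter effects (0.517% of all genes), in PreGM GFP+ against PreGM GFP- (0.908%) and in PreMegE against HSC GFP- (0.988%). It was 1 lower in CLP against LMPP (0.747% of all genes) and in PreMegE against PreGM GFP+ (0.0502%). The reporter effect on Lmo4 was larger in GMP than in PreGM by 1.69 (adjusted p = 0.0376), a call lost in 14 of 22 alternatives. Ldb1 signal in PreGM GFP+ was above that of PreGM GFP- by 0.95 (adjusted p = 0.00409, 0.0523 when fitted on these groups alone). Lmo4 was higher in GMP GFP+ than in PreGM GFP+ by 1.70 (adjusted p = 0.00145), and lower in PreMegE than in PreGM GFP+ (difference -1.96, adjusted p = 0.0029, 0.0791 on these groups alone). Lmo2 was lower in CLP than in LMPP by 1.48 (difference -1.48, SE 0.12, adjusted p = 3.97e-08), with its 3 arrays between 8.80 and 9.15 in CLP, against 10.31 to 10.60 in the 4 of LMPP. It was also lower in GMP GFP+ than in PreGM GFP+ (difference -0.97, adjusted p = 7.85e-05, 0.0543 on these groups alone), where Ldb1 was called lower (-0.76, adjusted p = 0.0479), a call lost in 9 of 15 alternatives with adjusted p up to 0.321. Ldb1 was called higher in PreMegE than in HSC GFP- (0.72, adjusted p = 0.0287), a call lost in 6 of 15 with adjusted p up to 0.124.

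Of 9 tissue-restricted helix-loop-helix genes whose products pair with E proteins, 2 were called, both between GMP GFP+ and GMP GFP-. The signal of Tal1, the stem cell and erythroid factor, was higher by 0.44 (adjusted p = 0.0163) and that of its relative Lyl1 was lower (difference -0.65, adjusted p = 0.0349). Both calls were lost in some alternatives, with adjusted p up to 0.0821 for Tal1 and 0.15 for Lyl1. Of 7 cofactor genes, Kat2a, a histone acetyltransferase, was lower in GMP GFP+ (difference -0.81, adjusted p = 0.00377) and no other was called in any comparison.

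Of 15 lymphoid genes known as targets of E proteins, 10 were higher in CLP than in LMPP, 0 were lower and 5 were not called (Dntt, Notch1, Ptcra, Cd79b and Cd3e), with a median difference of 1.36 log2 units, against 0.04 over all genes. The recombinase gene Rag1 had a log2 signal of 10.50 ± 0.58 (SD, n = 3) in CLP and 6.18 ± 0.29 (SD, n = 4) in LMPP, a difference of 4.32 (SE 0.23, adjusted p = 3.93e-11). The surrogate light chain gene Vpreb1 was higher by 3.84 (adjusted p = 0.0309), the B cell linker gene Blnk by 3.36 (adjusted p = 2.87e-09) and Il7r by 3.65 (adjusted p = 1.39e-08), but the receptor that Il7r encodes was used to sort CLP. The call of Foxo1 was lost in 10 of 16 alternatives (adjusted p up to 0.221), that of Cd79a in 8 of 15 (up to 0.185) and that of Vpreb1 in 7 of 16 (up to 0.152). Of the 10 genes, 5 (Vpreb1, Ebf1, Igll1, Pax5 and Cd79a) also stand in the list of 7 B cell markers, whose mean was 7.27 to 8.55 in CLP, against 5.83 to 6.53 in LMPP; the part of B lineage cells in the count was not tested.

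The terminal transferase gene Dntt had another course than the recombinase genes. Its log2 signal was 11.87 ± 0.32 (SD, n = 3) in CLP and 11.44 ± 0.30 (SD, n = 4) in LMPP, which was higher than in HSC GFP- (5.66 ± 0.23, SD, n = 3) by 5.78 (SE 0.20, adjusted p = 8.27e-15). In PreGM GFP+ it was 5.57 ± 0.29 (SD, n = 3), against 10.18 ± 0.35 (SD, n = 3) in PreGM GFP-, a difference of -4.62 (SE 0.21, adjusted p = 2e-12). PreGM GFP- thus had high Dntt beside high Id2, and in PreGM GFP+ both were under the low mark. Together with Il7r (-1.60, adjusted p = 0.00214, 0.0607 on these groups alone) it made 2 of the 15 genes lower in PreGM GFP+ and 0 higher, with a median difference of -0.55, against 0.04 over all genes. The reporter effect in GMP minus that in PreGM was 4.50 for Dntt (adjusted p = 4.38e-09) and 1.94 for Il7r (adjusted p = 0.0165, lost in 5 of 22 alternatives).

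Between GMP GFP+ and GMP GFP-, where Id2 was higher by 2.90, 0 of the 15 target genes were called either way in limma and 0 had an unadjusted p under 0.05, with a median difference of 0.15, against 0.08 over all genes. Dntt stood at 5.53 ± 0.29 (SD, n = 3) in GMP GFP+ arrays and 5.64 ± 0.17 (SD, n = 4) in GMP GFP- arrays, both under the low mark. The means of Rag1, Rag2, Il7r, Ebf1, Cd79a and Blnk were also under it in both GMP groups. For these genes a lower level in GMP GFP+ could hardly have been seen. Dntt was also lower in PreGM GFP- than in LMPP (difference -1.26, adjusted p = 0.00116, 0.0508 on these groups alone) and lower in GMP GFP- than in PreGM GFP- (difference -4.54, adjusted p = 1.39e-12), where Il7r was lower too (-1.59, adjusted p = 0.00193).

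**Figure D4:**
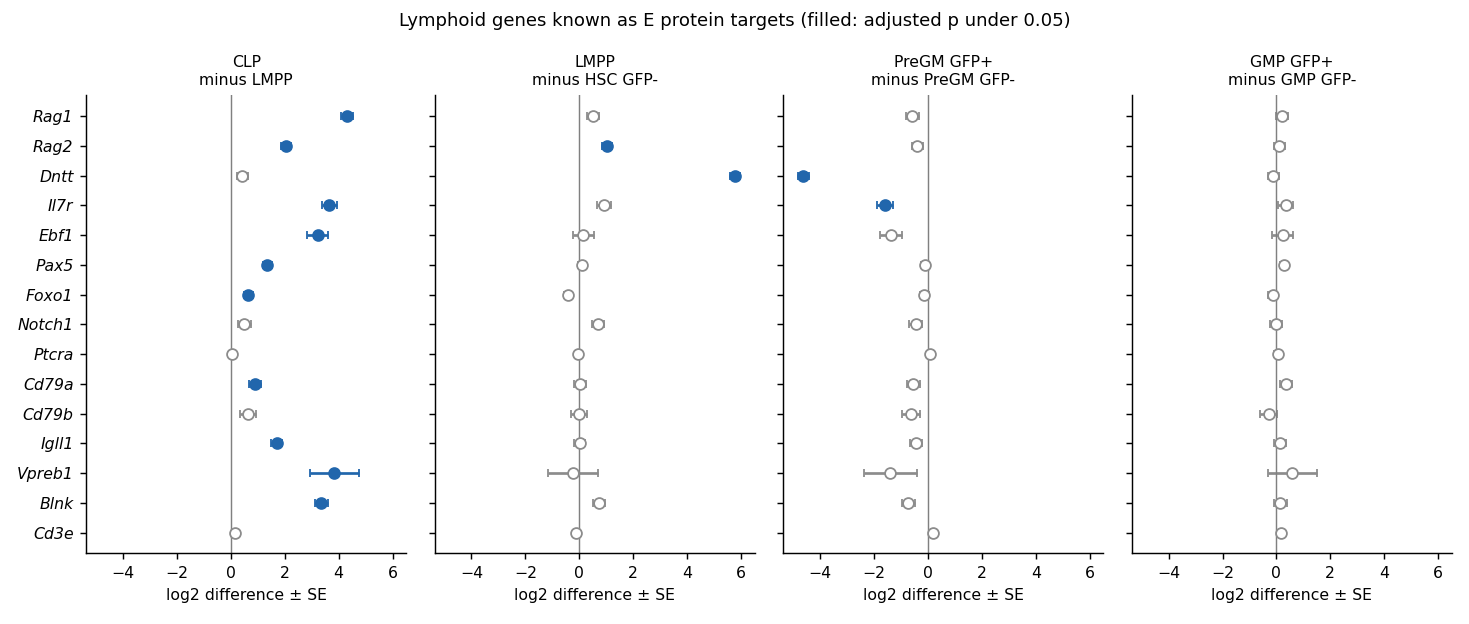
Log2 difference (horizontal axis, with its SE) of 15 lymphoid genes known as E protein targets in 4 comparisons; filled points passed the test at an adjusted p under 0.05. In CLP minus LMPP 10 genes are higher, led by Rag1 at 4.32, while Dntt leads LMPP minus HSC GFP- at 5.78 and PreGM GFP+ minus PreGM GFP- at -4.62, and none passed in GMP.

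Genes of signals known to act on Id genes or Id proteins were called in some comparisons. Of 12 genes of bone morphogenetic protein and SMAD signalling, which induces Id1 to Id3, the receptor gene Bmpr2 was lower in PreMegE than in HSC GFP- (difference -1.29, adjusted p = 0.00368, 0.0618 on these groups alone). The co-receptor gene Eng was lower than in HSC GFP- both in PreMegE (difference -0.86, adjusted p = 0.0212) and in LMPP (difference -0.86, adjusted p = 0.0184). The inhibitory SMAD gene Smad7 was called higher in GMP GFP+ against GMP GFP- (0.33, adjusted p = 0.0437). Of the 12 genes, 2 were lower in PreMegE than in HSC GFP-, against 2.19% of all genes. In LMPP 1 was lower than in HSC GFP-, against 1.28%, and in GMP GFP+ 1 was higher than in GMP GFP-, against 3.22%. Of 4 genes of Id protein turnover, Usp1, which encodes a deubiquitinase that stabilises Id proteins, was called higher in PreMegE than in HSC GFP- (0.82, adjusted p = 0.0451). There 0.988% of all genes were higher. Of the 4 measured genes of the G1 arrest list, whose best known E protein target Cdkn1a was not analysed here, limma called 0 in the 10 comparisons, and 1, Cdkn1b between GMP GFP+ and GMP GFP-, had an unadjusted p under 0.05. The calls of Eng, Smad7 and Usp1 were each lost in 5 or more alternatives.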

How the data were processed

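The authors deposited a table of log2 signals with 1 value for each probe set on each array, made with RMA and the package oligo, per the submitters' processing notes, which give no versions or steps; base 2 is taken from the range of the values. Of 35556 probe sets, 21789 named 1 gene in the annotation used (written for the 1.0 ST design), 1621 named several and 12146 none; 21698 matched an Entrez record and 0 symbols changed. The probe set with the highest mean over the arrays was taken for each of 19938 genes; each of the 7 members had 1. Depth does not apply to arrays.

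A single linear model with a coefficient per group covered all 26 arrays, in limma 3.58.1 under R 4.3.3, with moderated t and F tests and Benjamini-Hochberg adjustment over all genes; calls are at an adjusted p under 0.05. A difference is the first-named group's mean minus that of its comparison group. The members, gene lists and tests were chosen with earlier results of these data known. All members are named in every comparison, with at most 4 called genes per list and comparison and the 3 genes most like each member that the F test called. The code was tested on simulated data. Alternatives were array centring, quantile normalization, a filter on low signal, fits on the compared groups only, array weights, a trended robust prior, the mean of a gene's probe sets, a replicate block, a Y-linked covariate and leaving out each array; their use on the partner and marker lists was added after seeing the data.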

Additional observations from a re-analysis of the deposited data

Results flagged for a closer look

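The effect of the reporter on Id2 differed between the gates by a test of the difference itself: the log2 difference of reporter-positive minus reporter-negative cells was 2.90 in GMP and -2.08 in PreGM, and the GMP effect minus the PreGM effect was 4.98 (SE 0.51, limma adjusted p = 3.97e-06). Every GMP GFP+ array was above every GMP GFP- array, and every PreGM GFP+ array below every PreGM GFP- array. In the groups of 4 arrays, no array of any member stood apart by Dixon's test, and groups of 3 were not tested.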

How the results depend on the processing

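The calls of Id2 in both reporter comparisons, in their difference and between GMP GFP+ and PreGM GFP+, and those of Id2 and Tcf4 in the F test, held in every alternative run, and no call of a member changed sign. The limma adjusted p of Id2 between PreGM GFP+ and PreGM GFP- reached 0.0473 in these runs. Of the 7 members, 0 were called between GMP GFP- and PreGM GFP-, against 1 with the filter on low signal (Id2, adjusted p = 0.0386, which left 12403 genes and left out Id3), 1 with array weights (Tcf4, -1.03), 2 with the Y-linked covariate (Id2, -1.43, and Tcf4, -0.68) and 0 to 1 when each array was left out. Fitted on the compared groups only, the count was 0 instead of 1 between PreGM GFP- and LMPP (Id2, adjusted p = 0.0636) and 0 instead of 1 between PreMegE and HSC GFP- (Tcf4, adjusted p = 0.192). Leaving out each array gave 0 to 1 between PreMegE and HSC GFP- and 0 to 1 between CLP and LMPP. The cause of these changes was not tested. Array weights moved Id2 in PreGM to -1.27. Over all genes, array weights raised the calls of the reporter comparison in PreGM to 1266, against 408, and those of the F test to 5428, against 3036. With the replicate number as a replicate block, no count of members called changed (1 in each reporter comparison, 2 in the F test; Id2 in GMP 2.85, in PreGM -2.08). Same-numbered arrays correlated in their deviations at r from -0.263 to 0.325, and in no comparison was every pair over 0.1, so the numbers were not taken as pairs. The labels do not say whether they share mice, and the Y-linked mean had 1 order over arrays 1 to 3 in 6 groups (lowest in array 2, highest in array 3) and another in both PreMegE and HSC GFP- (lowest in array 1, highest in array 2). Of 40 called differences of partner and target genes, 17 held in every alternative and 23 were lost in at least 1, with 0 reversed. Signals near or under the median of all values, as in Id3 and Id1, limit what can be seen.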
